A study of Mus musculus with 12 samples.

Results

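The DNA repair genes described here are 50 genes that encode the kinases, nucleases, ligases, helicases, glycosylases and scaffolds with which a cell detects and mends damaged DNA. They were taken from a list of members, and every probe that carried the symbol of a listed gene, or an accession of it, was counted. All 50 were on the array, with 93 probes, out of 21169 named genes. Of these probes 78 were matched by accession and 15 by symbol, and 19 genes had 1 probe, 22 had 2 and 9 had 3 or 4.

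The samples are mouse embryonic stem (ES) cells, which grow in culture and can form the tissues of the embryo. One group was kept undifferentiated and the other was treated for 3 days with retinoic acid, the derivative of vitamin A that drives ES cells to differentiate. Each group held 3 biological samples, named here replicates 1 to 3, and the total RNA of each sample was amplified, labelled with Cy3 and hybridised to 2 technical arrays, 12 arrays in all. Cell line, passage, culture medium, feeder cells and dose of retinoic acid are not given in the sources used here. It is not stated either whether replicates were grown as separate cultures, and the p-values then reflect only the spread among the 3 samples of a group, which may be technical. By its title the series is about histone H4 acetylation in differentiating ES cells, and the arrays compare RNA before and after treatment.

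Repair pathways are divided by the lesion they mend. Damage kinases sense broken or stalled DNA and halt the cell cycle, homologous recombination and end joining rejoin double-strand breaks, and the Fanconi anaemia pathway removes cross-links between the strands. Mismatch repair corrects replication errors, nucleotide excision removes bulky lesions, base excision replaces single damaged bases, and direct reversal takes an alkyl group off the base. ES cells are known for a short G1 phase, rapid division and a strong reliance on homologous recombination.

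Values are given as log2 intensity, the log2 of the quantile-normalized net intensity plus 50, averaged over the technical arrays of a sample. A difference is retinoic acid minus undifferentiated on this scale, with its standard error (SE) from the limma fit, and a gene is called when the two-sided limma p, adjusted by Benjamini-Hochberg over all 15322 genes tested, is under 0.05. All 50 repair genes passed the filter on dim probes. On all 12 arrays 48 of them were above the background limit, the exceptions being Ercc2 and Mgmt. None exceeded an intensity of 40000, and the brightest value, for Msh6, was 25010. Technical arrays of a sample differed by a median of 0.054 (90th percentile 0.174), while the median SD between samples was 0.25 in the undifferentiated and 0.18 in the retinoic acid group. Median net intensity ran from 37.4 to 96.6 between arrays and the background limit from 8.50 to 51.6.

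The labels were checked against marker lists. All 8 ES cell markers fell (median difference -4.41), and their summed intensity was 79996 to 125664 in the undifferentiated and 4590 to 5480 in the retinoic acid samples. Of 7 retinoic acid response genes 5 rose. The other genes of that list, Stra6 (-0.27) and Rarb (-0.27), were not called. Their mean log2 intensities were already 11.95 and 12.40 in the undifferentiated samples. Markers of other cell types moved with the groups too. Of the 7 trophoblast markers tested among 8, 5 rose (summed intensity 1282 to 3270 against 53824 to 60536), with the defining marker Elf5 above background on no array. This sum came mostly from Krt8, Krt18 and Krt19, with mean log2 intensities of 14.05, 15.03 and 12.62 after retinoic acid. Gata3 and Cdx2 rose too, to 10.10 and 7.21. Hand1 (0.43) and Eomes (-0.47, groups not overlapping) were not called. Of the 9 feeder fibroblast markers tested among 10, 6 rose and Thy1 fell (8514 to 18988 against 35565 to 43990), with Postn above background on no retinoic acid array. This sum came mostly from Acta2, Tagln and Vim, with mean log2 intensities of 13.69, 13.70 and 13.43 after retinoic acid, beside 9.78 for Col1a2. Acta2 (0.91) and Col1a1 (-0.38) were not called. The 7 endoderm markers gave 3 higher and 1 lower (1134 to 1945 against 5307 to 5921), and the 6 neural markers 1 higher and 1 lower (2596 to 3505 against 3317 to 3616). The part of such cells in the repair results was not tested.

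After retinoic acid 17 of the 50 repair genes fell, where 13.6% of all genes tested were called lower, and 0 rose, where 18.7% of all genes were called higher. The falls were moderate, 1.45-fold to 2.91-fold with a median of 1.94-fold. Chek2, Ung, Msh6, Rif1, Fancm, Atm and Chek1 fell at least 2-fold, which makes 7 genes, against 6.34% of all genes. Called genes came from 6 of the 9 pathways, most of them from the damage kinases (4 of 4) and the Fanconi anaemia genes (5 of 8). None of the nucleotide excision genes (0 of 7) or of the MRN complex (0 of 3) was called. With so few genes, and 13.6% of all genes called lower, these counts do not set the 2 pathways apart. In these bulk samples, fewer cells that express a gene and less RNA per cell cannot be told apart.

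Over all 50 genes the median difference was -0.49, a level 1.40-fold lower, beside 0.0035 over all genes tested. The difference was negative for 43 repair genes and positive for 7, where 49.7% of all genes were negative. At an unadjusted p under 0.05, 25 repair genes were lower (18.8% of all genes) and 0 higher (23.9%). In all 17 called genes every retinoic acid sample lay below every undifferentiated sample. The same held for 9 genes that were not called, and 0 repair genes had groups that did not overlap in the other direction, against 20.8% and 25.7% of all genes. Among the 33 genes not called, 27 had a 95% confidence interval within -1 and 1, which leaves room for changes of up to 2-fold. Since the genes were chosen with earlier results known, no test over the list was made.

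**Figure D1:**
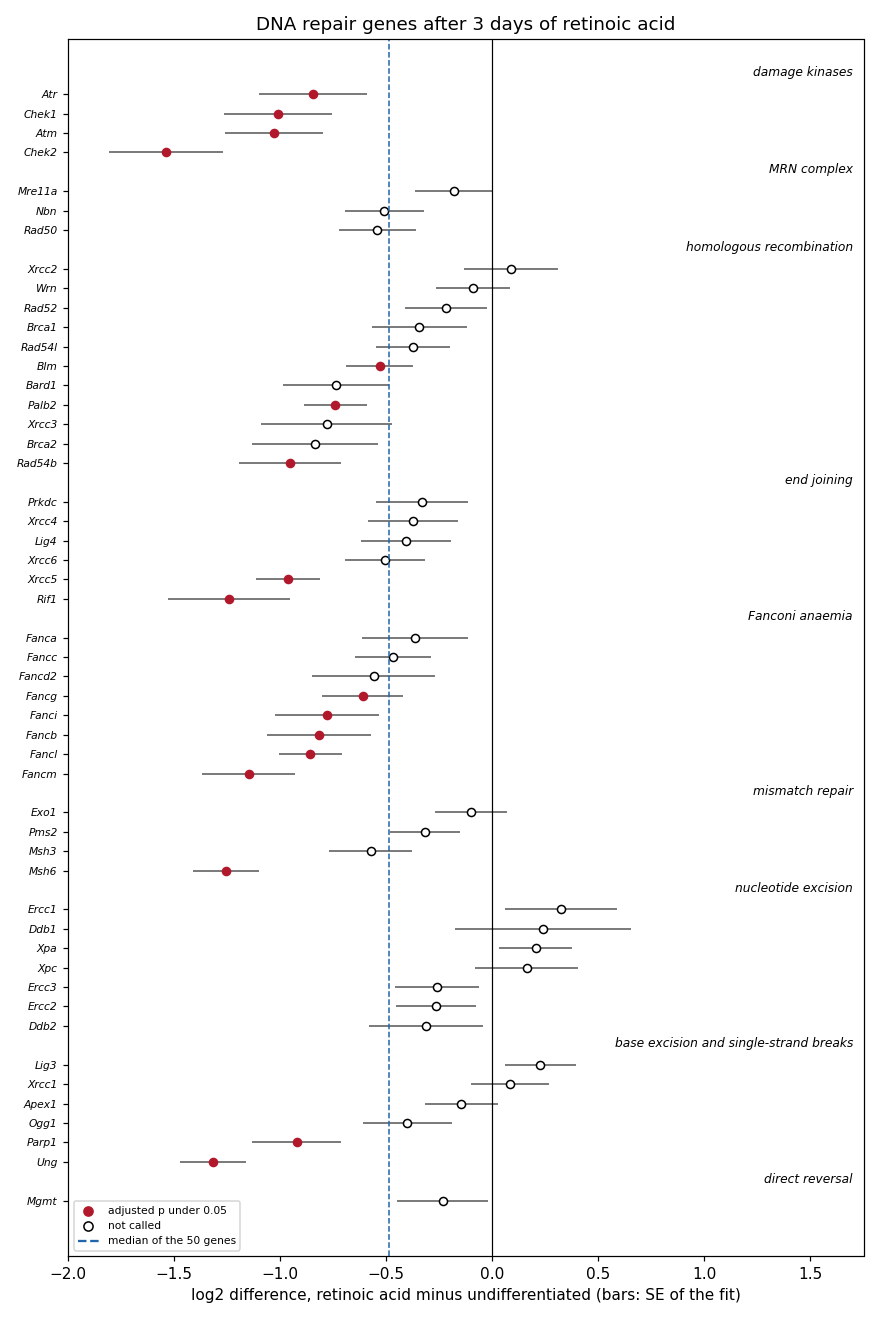
The log2 difference (retinoic acid minus undifferentiated, x axis) of each of the 50 repair genes by pathway, with the SE of the fit as bars, filled where the adjusted p was under 0.05 and open where it was not. The 17 filled points all lie left of 0 and the dashed line marks the median of the 50 genes at -0.49; the open points right of 0 for Ddb1 and Xrcc1 lie left of it under the other scalings.

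The count changed with the scaling and with the samples. Scaled to the 75th percentile of each array, 22 repair genes were lower (17.2% of all genes) and 0 higher (15.9%), and scaled to the median 15 were lower (14.6%) and 0 higher (15.5%). Over all genes, calls were 2871 higher and 2083 lower with quantile normalization, 2435 and 2633 with the 75th percentile, and 2368 and 2240 with the median, so that higher genes made up 58.0%, 48.0% and 51.4% of the calls. Leaving out undifferentiated replicate 1 left 11 repair genes lower, where 10.1% of all genes were lower. Leaving out retinoic acid replicate 1 or 3 left 9 each, beside 8.65% and 8.01% of all genes, so that the calls over all genes fell too. Without undifferentiated replicate 2 there were 14 (13.8% of all genes), and 19 each without undifferentiated replicate 3 (13.7%) or retinoic acid replicate 2 (12%). Chek2, Fancl, Msh6, Ung and Xrcc5 were called under each of the 23 alternatives, and 9 of the 17 were called in each of the 6 fits without 1 sample. Msh6, Ung and Xrcc5 had only 1 probe. The alternatives that changed the probe used the same probe again for them and could not test their calls. At an adjusted p under 0.01, 7 repair genes were lower, beside 7.28% of all genes.

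Promoter windows from RefSeq (GRCm38.p6), 250 bases before to 50 bases from the transcription start on, were matched by symbol for 38 of the 50 repair genes and for 15 of the 17 called ones. They were searched on both strands for E2F sites, through which the E2F factors drive genes of DNA synthesis, and for 3 other promoter elements. An exact E2F match (TTTCCCGC, TTTGGCGC or TTTCGCGC) was in the windows of 7 of 38 repair genes (18.4%), beside 3.79% of the 11831 tested genes with a window and 2.12% of all 27025 genes with one. Among the repair genes the match was in 3 of 15 called and 4 of 23 that were not called. The 30 bases around each of these matches are shown because the share with such a match was larger among the repair genes than among the tested genes, a difference that was not tested. The stretches are written on the strand of the gene, with the match in capitals, which is the reverse complement of the motif where it lies on the opposite strand.

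Chek2: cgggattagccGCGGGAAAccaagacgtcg
Fancg: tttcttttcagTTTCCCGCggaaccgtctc
Msh6: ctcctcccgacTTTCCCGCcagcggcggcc
Bard1: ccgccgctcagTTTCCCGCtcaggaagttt
Brca2: tttaggccacaGCGGGAAAcagacacacac
Msh3: ttgccgtcaagTTTGGCGCGAAAtcgcagc
Xrcc6: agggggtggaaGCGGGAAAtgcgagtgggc

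The first 3 of these genes, Chek2, Fancg and Msh6, were called lower and the other 4 were not. In Msh3, TTTGGCGC and TTTCGCGC on opposite strands overlap. Match positions, counted from the start with negative values upstream, were -152 in Chek2, -52 in Fancg, 16 in Msh6, -209 in Bard1, -168 in Brca2, -202 in Msh3 and -46 in Xrcc6. In GRCm38.p6 the stretches lie at chr5:110839820-110839849 (Chek2), chr4:43010335-43010364 (Fancg), chr17:87975054-87975083 (Msh6), chr1:71103163-71103192 (Bard1), chr5:150522442-150522471 (Brca2), chr13:92355187-92355216 (Msh3) and chr15:82016312-82016341 (Xrcc6).

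The other elements were searched in the same windows. CCAAT was in the windows of 21 of 38 repair genes (55.3%, tested genes 42.7%), the GC box GGGCGG in 28 (73.7%, tested genes 65.1%) and the cell cycle element CHR (TTTGAA) in 1 (2.63%, tested genes 14.8%). Median GC content was 60.2% for the repair genes and 60.3% for the tested genes. A match is a description of letters in a window, and no share was tested. The whole windows are shown for the 4 genes with the largest falls among the called genes that had a window, so that their differing elements can be compared. Rif1, which fell more than Fancm, had no window. Capitals mark CCAAT, in either orientation, and E2F matches.

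Chek2: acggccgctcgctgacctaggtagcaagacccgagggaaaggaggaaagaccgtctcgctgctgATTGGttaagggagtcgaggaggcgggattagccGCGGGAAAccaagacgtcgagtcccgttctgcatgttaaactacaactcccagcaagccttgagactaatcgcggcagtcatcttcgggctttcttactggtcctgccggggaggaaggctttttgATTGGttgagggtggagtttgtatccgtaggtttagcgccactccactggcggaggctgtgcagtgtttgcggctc
Ung: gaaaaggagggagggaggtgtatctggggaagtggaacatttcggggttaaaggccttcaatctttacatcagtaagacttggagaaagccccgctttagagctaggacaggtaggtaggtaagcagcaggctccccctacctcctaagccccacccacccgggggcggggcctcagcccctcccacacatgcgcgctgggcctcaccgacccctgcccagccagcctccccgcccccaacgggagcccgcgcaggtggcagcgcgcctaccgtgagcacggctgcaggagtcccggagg
Msh6: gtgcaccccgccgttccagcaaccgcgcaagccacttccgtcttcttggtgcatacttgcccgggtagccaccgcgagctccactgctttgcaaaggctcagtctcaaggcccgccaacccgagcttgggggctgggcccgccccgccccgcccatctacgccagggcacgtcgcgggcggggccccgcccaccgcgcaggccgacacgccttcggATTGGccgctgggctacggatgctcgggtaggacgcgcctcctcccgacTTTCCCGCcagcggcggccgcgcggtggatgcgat
Fancm: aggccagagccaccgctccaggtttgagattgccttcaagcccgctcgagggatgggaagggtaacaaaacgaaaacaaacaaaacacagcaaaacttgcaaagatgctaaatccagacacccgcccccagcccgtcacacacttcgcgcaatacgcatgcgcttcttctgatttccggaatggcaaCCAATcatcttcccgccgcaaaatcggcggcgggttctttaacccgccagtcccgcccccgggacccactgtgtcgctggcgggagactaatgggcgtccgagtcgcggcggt

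These windows lie at chr5:110839733-110840032 (Chek2), chr5:114130185-114130484 (Ung), chr17:87974800-87975099 (Msh6) and chr12:65075353-65075652 (Fancm), all on the plus strand. Chek2 holds 2 CCAAT elements and an E2F match, Msh6 1 of each and Fancm 1 CCAAT. In Ung, the gene with the lowest adjusted p of the 50, neither was found in this window.

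All 4 damage kinases fell, with a median difference of -1.02. Atm and Atr are the large kinases activated by double-strand breaks and by stalled replication, and Chek1 and Chek2 are the effector kinases they switch on. Chek2 had values of 8.97, 8.32 and 9.44 in undifferentiated replicates 1 to 3 and 7.31, 7.43 and 7.38 in retinoic acid replicates 1 to 3. The retinoic acid samples were close together and the undifferentiated ones spread over more than 1 unit, all of them higher. The fall of Chek2 was 2.91-fold (log2 difference -1.54 ± 0.27 SE, adjusted p = 0.00376), the largest of the 50 genes.

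Chek1 measured 10.99, 10.48 and 11.23 before and 9.67, 10.30 and 9.70 after retinoic acid. Undifferentiated replicate 2 was the low sample of its group and retinoic acid replicate 2 the high one, so that the groups were separated by a narrow gap. Chek1 fell 2.02-fold (-1.01 ± 0.25 SE, adjusted p = 0.0187). For Atm the values were 9.18, 8.89 and 9.10 against 7.94, 8.50 and 7.65, a fall of 2.04-fold (-1.03 ± 0.23 SE, adjusted p = 0.0116). In Atr, 11.04, 10.96 and 11.11 stood against 9.86, 10.78 and 9.93, a fall of 1.80-fold (-0.85 ± 0.25 SE, adjusted p = 0.037).

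For both large kinases retinoic acid replicate 2 lay nearest to the undifferentiated samples. Chek1 and Atr lost their calls in some of the fits without 1 sample. Their differences stayed negative in these fits, which hold fewer samples, and the cause of the lost calls was not tested. Without undifferentiated replicate 1, retinoic acid replicate 1 or retinoic acid replicate 3, Chek1 had a difference of -0.97, -0.90 and -0.92, with an adjusted p of 0.0645, 0.0713 and 0.0766. Atr kept its call only without retinoic acid replicate 2, and in the other 5 fits without 1 sample its adjusted p ran from 0.0589 (without undifferentiated replicate 2) to 0.136 (without retinoic acid replicate 3), with differences from -0.89 to -0.68.

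**Figure D2:**
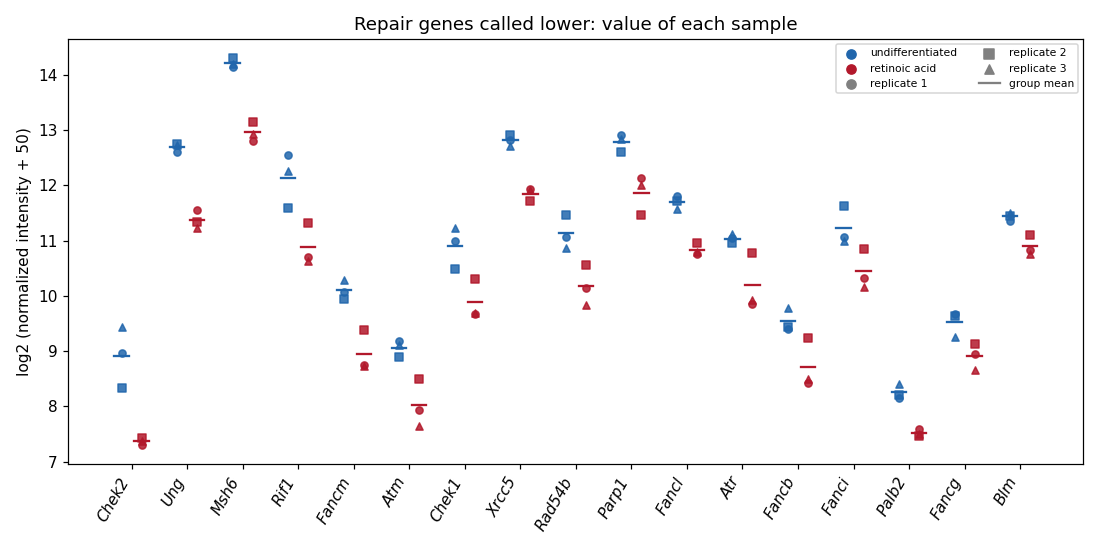
Log2 intensity (y axis) of each of the 17 repair genes called lower, ordered by the size of the fall, with 1 point per sample (blue undifferentiated, red retinoic acid, the shape giving the replicate) and a line at each group mean. In every gene the 3 red points lie below the 3 blue ones, and the red square, retinoic acid replicate 2, is the highest red point in 13 of the 17; intensities of different genes come from different probes and are not comparable.

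The MRN complex, which binds broken ends and activates Atm, had negative differences in all 3 genes and 0 calls (median -0.51). Rad50 measured 9.87, 9.44 and 9.57 in the undifferentiated and 8.88, 9.09 and 9.28 in the retinoic acid samples. Its groups did not overlap, and the difference of -0.54 ± 0.18 (SE) missed the threshold (adjusted p = 0.0549). Nbn had a difference of -0.51 (adjusted p = 0.0751) with groups that did not overlap, and the nuclease Mre11a one of -0.18 with groups that did. With the 75th percentile scaling Rad50 and Nbn were called lower (adjusted p = 0.0483 and 0.0337). Rad50 was also called without undifferentiated replicate 2 (0.0394) and Nbn without retinoic acid replicate 2 (0.0478).

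Of the 11 homologous recombination genes 3 fell and 0 rose, with a median difference of -0.53 and 10 negative values. Palb2, the protein that joins Brca1 to Brca2, went from 8.16, 8.20 and 8.41 to 7.58, 7.46 and 7.51. The groups did not overlap, with a fall of 1.67-fold (-0.74 ± 0.15 SE, adjusted p = 0.00694). Palb2 was not called with all 12 arrays fitted and the sample as a random block (adjusted p = 0.161), and it kept its call under the other alternatives. Rad54b, a translocase that acts on the recombination filament, measured 11.07, 11.47 and 10.86 against 10.14, 10.56 and 9.83. It fell 1.94-fold (-0.95 ± 0.24 SE, adjusted p = 0.0186). Blm, the helicase lost in Bloom syndrome, had the smallest of the called falls. Its values were 11.36, 11.45 and 11.50 against 10.84, 11.11 and 10.77, a fall of 1.45-fold (-0.53 ± 0.16 SE, adjusted p = 0.0345).

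Without undifferentiated replicate 1, retinoic acid replicate 1 or retinoic acid replicate 3, Rad54b had a difference of -0.99, -0.93 and -0.78, with an adjusted p of 0.0509, 0.0621 and 0.0762. Blm was called only without retinoic acid replicate 2 among the fits without 1 sample, and its adjusted p in the others ran from 0.0536 (without undifferentiated replicate 2) to 0.147 (without retinoic acid replicate 3), with differences from -0.57 to -0.46.

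The breast cancer genes themselves were not called in the main fit. Brca2, which loads the recombinase, measured 10.74, 10.62 and 10.60 in the undifferentiated samples, and 9.36, 10.55 and 9.54 in the retinoic acid samples. Retinoic acid replicate 2 was thus next to the undifferentiated samples and the other 2 were about 1 unit lower. The difference was -0.84 ± 0.30 (SE) with an adjusted p of 0.0662, and without retinoic acid replicate 2 it was -1.20 with an adjusted p of 0.00304. With all samples kept, Brca2 was called under the 75th percentile scaling (-0.97, adjusted p = 0.0369) and with the mean of its probes (-0.82, 0.0233). It was also called with all 12 arrays fitted and the sample as a random block (0.0302). Under the other 19 alternatives Brca2 was not called. Bard1, the partner of Brca1 in its ubiquitin ligase, had a difference of -0.74 (adjusted p = 0.057) and Xrcc3 one of -0.78 (adjusted p = 0.0898), both with groups that did not overlap. Bard1 was called without undifferentiated replicate 2 (0.0395) or 3 (0.0478) and Xrcc3 without undifferentiated replicate 1 (0.0402). Brca1 (-0.34), Rad54l (-0.37), Rad52 (-0.22), Wrn (-0.09) and Xrcc2 (0.09) had groups that overlapped. The 95% interval of Brca1 ran from -0.86 to 0.18, that of Brca2 from -1.53 to -0.15 and that of Xrcc2 from -0.42 to 0.60.

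In end joining, 2 of 6 genes fell and all 6 differences were negative (median -0.46). Xrcc5, the larger subunit of the Ku heterodimer that caps broken ends, measured 12.82, 12.91 and 12.70 against 11.93, 11.71 and 11.91. The SD was 0.10 and 0.12 (n = 3 each), and the fall was 1.95-fold (-0.96 ± 0.15 SE, adjusted p = 0.00224). The other Ku subunit, Xrcc6, measured 10.67, 10.50 and 10.08 against 9.92, 10.01 and 9.81. Its groups did not overlap, but the difference of -0.50 ± 0.19 (SE) was not called (adjusted p = 0.0777). Without undifferentiated replicate 3 it was (0.0192).

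Rif1, which restrains the resection of breaks and sets the timing of replication, measured 12.54, 11.59 and 12.26 in the undifferentiated and 10.71, 11.31 and 10.63 in the retinoic acid samples. Replicate 2 was the lowest undifferentiated and the highest retinoic acid sample. Rif1 fell 2.37-fold (-1.24 ± 0.29 SE, adjusted p = 0.0133), and without retinoic acid replicate 1 or 3 its difference was -1.15 and -1.12 with an adjusted p of 0.0512 and 0.0574. The ligase Lig4 (-0.41), its partner Xrcc4 (-0.37) and the kinase Prkdc (-0.33) had groups that overlapped and were called in none of the 23 alternatives.

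The Fanconi anaemia genes fell in 5 of 8 cases, and all 8 differences were negative (median -0.70). Fancm, the translocase that anchors the core complex to damaged DNA, measured 10.08, 9.94 and 10.29 against 8.75, 9.39 and 8.73. It fell 2.22-fold (-1.15 ± 0.22 SE, adjusted p = 0.00546). Fancl, the ubiquitin ligase of the core complex, went from 11.80, 11.71 and 11.58 to 10.75, 10.96 and 10.80. Both groups were tight, and the fall was 1.81-fold (-0.86 ± 0.15 SE, adjusted p = 0.00364).

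The other 3 called genes of the pathway were near the threshold. Fancb, a partner of Fancl in the core complex, measured 9.40, 9.43 and 9.77 against 8.42, 9.24 and 8.50 (1.76-fold lower, -0.82 ± 0.25 SE, adjusted p = 0.0377). Retinoic acid replicate 2 lay just below the undifferentiated samples. Fancg, also of the core complex, measured 9.68, 9.64 and 9.25 against 8.94, 9.13 and 8.67 (1.53-fold lower, -0.61 ± 0.19 SE, adjusted p = 0.0438). Fanci, which is ubiquitinated together with Fancd2, measured 11.06, 11.62 and 11.00 against 10.33, 10.84 and 10.16 (1.72-fold lower, -0.78 ± 0.24 SE, adjusted p = 0.0429). With the median scaling Fancb and Fancg were not called (adjusted p = 0.0571 and 0.0666).

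These 3 genes too lost their calls in some of the fits without 1 sample. Fancb was called only without retinoic acid replicate 2, with an adjusted p from 0.0556 (without undifferentiated replicate 2) to 0.137 (without retinoic acid replicate 3) in the other 5 fits and differences from -0.88 to -0.67. Without undifferentiated replicate 1, retinoic acid replicate 1, undifferentiated replicate 2 or retinoic acid replicate 3, Fancg had an adjusted p of 0.133, 0.109, 0.0884 and 0.170, and Fanci one of 0.0736, 0.129, 0.0917 and 0.156. In these fits the difference of Fancg was -0.63 to -0.49, and that of Fanci -0.86 to -0.58. Fancc (-0.47) had groups that did not overlap and was not called (adjusted p = 0.084), whereas Fanca (-0.36) and Fancd2 (-0.56) overlapped. Without undifferentiated replicate 3, Fancc (0.0302) and Fancd2 (0.0342) were called.

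In mismatch repair 1 of 4 genes fell and all 4 differences were negative (median -0.45). Msh6, which recognises base mismatches, measured 14.15, 14.30 and 14.20 in the undifferentiated samples and 12.80, 13.15 and 12.93 in the retinoic acid samples. The gap between the groups was larger than the spread within either. Msh6 fell 2.38-fold (-1.25 ± 0.16 SE, adjusted p = 0.000737) and was called in each fit without 1 sample.

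Msh3, which recognises larger loops, measured 11.26, 11.42 and 10.83 against 10.53, 10.77 and 10.49, a difference of -0.57 ± 0.20 (SE) that missed the threshold (adjusted p = 0.0574). It was called with the 75th percentile scaling (0.0305) and without undifferentiated replicate 3 (0.0167). Pms2, a subunit of the mismatch endonuclease, had a difference of -0.32 with groups that did not overlap. The exonuclease Exo1 had one of -0.10, with an interval from -0.49 to 0.29.

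Base excision and single-strand break repair held 2 falls among 6 genes, with a median difference of -0.27. Ung, the glycosylase that removes uracil from DNA, measured 12.60, 12.75 and 12.73 against 11.56, 11.33 and 11.22. The groups were more than 1 unit apart, and Ung fell 2.49-fold (-1.32 ± 0.16 SE, adjusted p = 0.000587). Parp1, which marks strand breaks with poly(ADP-ribose), went from 12.91, 12.60 and 12.84 to 12.12, 11.46 and 12.01. Parp1 fell 1.89-fold (-0.92 ± 0.21 SE, adjusted p = 0.0122), and here retinoic acid replicate 2 was the lowest of its group.

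Apex1, Xrcc1 and Lig3, which act downstream of the glycosylases, were not called, whereas Parp1 was. The abasic endonuclease Apex1 had a difference of -0.15, the scaffold Xrcc1 one of 0.08 and the ligase Lig3 one of 0.23, with groups that overlapped. The direction of Xrcc1 turned with the 75th percentile (-0.22) and median (-0.18) scaling, and Apex1 was called lower with the 75th percentile scaling (-0.54, adjusted p = 0.0412). Ogg1, the glycosylase for oxidised guanine, had a difference of -0.40 with an interval from -0.89 to 0.08.

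Nucleotide excision repair had no call among its 7 genes in any of the 23 alternatives. The median difference was 0.16 and 4 of the 7 were positive, but with the 75th percentile and median scaling 3 were positive and the median was -0.10 and -0.070. Ercc1, a subunit of the nuclease that cuts beside the lesion, had the largest difference. It measured 11.45, 12.05 and 11.01 in the undifferentiated and 11.63, 11.85 and 11.99 in the retinoic acid samples. The groups overlapped, and the difference was 0.32 ± 0.27 (SE, adjusted p = 0.404).

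The damage sensors Xpc (0.16) and Ddb1 (0.24) and the scaffold Xpa (0.20) had positive differences, and Ddb2 (-0.31) and the TFIIH helicases Ercc2 (-0.27) and Ercc3 (-0.26) negative ones. Ddb1 measured 12.38, 11.47 and 12.39 against 12.84, 11.42 and 12.70, so that replicate 2 was the low sample in both groups. Its difference had the widest interval of the list, -0.72 to 1.20, and turned to -0.10 and -0.070 with the other scalings. Ercc2 was dim, above background on 5 of 6 undifferentiated and 3 of 6 retinoic acid arrays.

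Direct reversal was represented by Mgmt alone, the methyltransferase that takes alkyl groups off guanine. It was near background, above it on 5 of 6 undifferentiated and 6 of 6 retinoic acid arrays. Mgmt measured 6.86, 7.22 and 6.50 against 6.45, 6.81 and 6.62. The groups overlapped, with a difference of -0.23 ± 0.21 (SE, adjusted p = 0.454).

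Because many of the genes had several probes, each probe was also fitted by itself, with adjustment over all 26587 probes tested. Of the 93 probes of the repair genes 85 passed the filter, 25 of them, on 17 genes, were called lower (11.5% of all probes) and 0 higher (14.0%). These are not the same 17 genes as in the main fit. Fancg (adjusted p = 0.0539) and Fanci (0.0534) lost the call on the brightest probe, and Rad54l and Fancd2 were called on a dimmer probe. Of the 35 dimmer probes that passed, 32 had a negative difference and 3 a positive one. For the called genes with such a probe, 12 in number, all 15 dimmer probes were negative and 8 were called.

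Agreement was close for some genes. Chek2 gave -1.54 and -1.53 on its probes, Chek1 -1.01 and -1.03, Fancl -0.86 and -0.88, and Atr between -0.61 and -0.97 on 4 probes. Sizes differed elsewhere, as on the dimmer probes of Atm (-0.37 against -1.03), Rad54b (-0.47 against -0.95), Fanci (-0.26 against -0.78) and Fancg (-0.33 and -0.12 against -0.61), none of which was called. The reverse was seen for Rad54l, where the brightest probe gave -0.37 without a call and another gave -0.83 (adjusted p = 0.0271 over all probes), and for Fancd2 (-0.56 against -0.84, adjusted p = 0.00548). Which transcripts these probes reach was not tested.

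**Figure D3:**
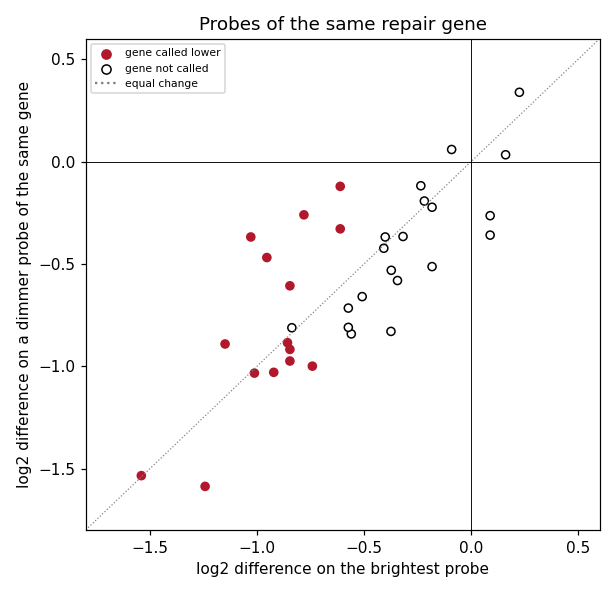
The log2 difference on the brightest probe of a repair gene (x axis) against that on each of its dimmer probes that passed the filter (y axis), red where the gene was called lower and open where it was not; the dotted line marks equal change. The 15 red points all lie below 0, and those for Atm, Rad54b, Fanci and Fancg lie above the dotted line.

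The 3 retinoic acid samples did not contribute equally. Measured from each gene's mean over the 6 samples, the median of the 50 genes was 0.26, 0.31 and 0.21 in undifferentiated replicates 1 to 3. It was -0.31, -0.05 and -0.35 in retinoic acid replicates 1 to 3. Replicate 2 was thus the retinoic acid sample nearest to the undifferentiated level, and it was the highest of its group in 35 of the 50 repair genes (70.0%) and in 13 of the 17 called ones (76.5%), beside 51.1% of all genes tested. Without it 19 repair genes were lower and the median difference was -0.53.

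Its summed intensity of ES cell markers, 4590, was the lowest of the retinoic acid samples. Its summed intensity of the 24 genes of S phase and proliferation was 197102, beside 177999 and 177189 in retinoic acid replicates 1 and 3. A set of 12 control spots followed the replicate number in both groups, at 401 to 461 in replicate 1, 1375 to 1434 in replicate 2 and 1584 to 1770 in replicate 3. The part of these values in the repair results was not tested.

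**Figure D4:**
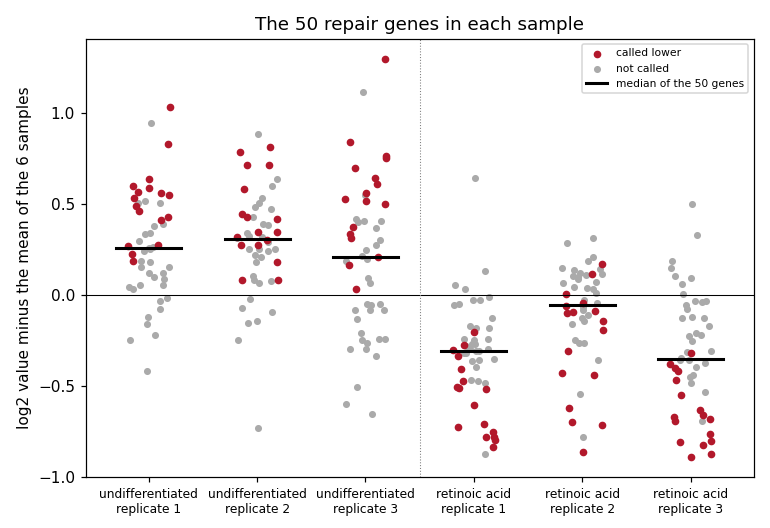
The log2 value of each of the 50 repair genes minus its mean over the 6 samples (y axis) in each sample (x axis), red for genes called lower and grey for the others, with a line at the median. The medians lie at 0.26, 0.31 and 0.21 in the undifferentiated samples and at -0.31, -0.05 and -0.35 in the retinoic acid samples, so that retinoic acid replicate 2 sits closest to 0.

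Other genes of the same pathways, from a list of 93, moved in both directions. Of the 90 that were tested 15 fell, 6 rose and 69 were not called, with a median difference of -0.22. The share that fell was 16.7%, near the 13.6% of all genes, and the share that rose was 6.67%, beside 18.7% of all genes. Rev3l, the catalytic subunit of a translesion polymerase, rose 3.09-fold (1.63 ± 0.24 SE, adjusted p = 0.00188), from 10.95, 10.51 and 11.33 to 12.42, 12.87 and 12.39. Trp53bp1, which favours end joining over resection, rose 1.72-fold (0.79, adjusted p = 0.00732). Smug1, another uracil glycosylase, rose 2.03-fold on its brightest probe (1.02, adjusted p = 0.00337), and its second brightest probe gave -0.33 without a call. Ung and Smug1 thus had called differences of opposite sign on the brightest probe only, since Smug1 was not called with the mean of its probes either (0.28, adjusted p = 0.386). Rnf8, Rad51d and Ercc5 rose by 0.53, 0.45 and 0.70. Rnf8 and Rad51d were not called with the 75th percentile (adjusted p = 0.125 and 0.0776) or median scaling (0.134 and 0.0958). All 3 lost the call in 5 of the 6 fits without 1 sample, with an adjusted p of up to 0.122, 0.194 and 0.0931.

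Among the falls were Ube2a, the ubiquitin-conjugating partner of Rad18 (2.11-fold, -1.07), Gtf2h1, a subunit of TFIIH (2.02-fold, -1.01), and Parp2, the relative of Parp1 (1.97-fold, -0.98). Mlh3 (-0.96), Mms22l (-0.88), Alkbh2 (-0.87), Abraxas1 (-0.76), Ube2t (-0.69), Rad17 (-0.68), Dclre1c (-0.66), Gtf2h2 (-0.64), Recql4 (-0.60), Hus1 (-0.56) and Nhej1 (-0.44) fell less. Nhej1 (adjusted p = 0.0456) lost the call with the 75th percentile (0.0502) and median scaling (0.105) and in all 6 fits without 1 sample. In these fits Dclre1c lost it in 5, and Mms22l, Gtf2h2 and Hus1 in 4. Alkbh2 and Recql4 lost it in 3, Ube2t and Rad17 in 2 and Mlh3 in 1. Rev3l, Trp53bp1, Smug1, Ube2a, Gtf2h1, Parp2 and Abraxas1 were called in each of the 6 fits without 1 sample, though with the second brightest probe Rev3l, Trp53bp1, Smug1, Ube2a and Abraxas1 were not. Gtf2h1 had only 1 probe. The second brightest probe gave -0.081 for Mms22l (adjusted p = 0.845) and -0.26 for Mlh3 (0.372), and Hus1 was not called with it either (0.0708). With the mean of the probes Mms22l (adjusted p = 0.120), Dclre1c (0.264), Hus1 (0.182) and Smug1 (0.386) lost the call. Without retinoic acid replicate 1 or retinoic acid replicate 3 only 5 of the 90 genes were lower and 3 higher, and without undifferentiated replicate 1 these were 8 and 3, while 8.65%, 8.01% and 10.1% of all genes were lower in these fits.

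Many repair genes are expressed most in dividing cells, so the genes of S phase and proliferation are given beside them. Of 24 such genes 3 fell and 1 rose, with a median difference of -0.18. The share that fell was 12.5%, near the 13.6% of all genes, and the share that rose 4.17%, beside 18.7%. E2f1, a driver of S phase genes, fell 1.83-fold (-0.87, adjusted p = 0.0141), Mcm3, a subunit of the replicative helicase, 1.51-fold (-0.60, adjusted p = 0.0167) and Gins1, of the same helicase complex, 1.43-fold (-0.51, adjusted p = 0.0452). E2f1 was not called with its second brightest probe (-0.21, adjusted p = 0.549) or with the mean of its probes (-0.54, 0.0551), nor Gins1 with its second brightest probe (-0.56, 0.0597). The proliferation marker Mki67 rose by 0.69 (adjusted p = 0.0483) and was called in none of the 6 fits without 1 sample. This list depended on the scaling more than the repair genes did, with 13 lower and 0 higher with the 75th percentile and 9 lower and 0 higher with the median scaling, where 17.2% and 14.6% of all genes were lower. Without retinoic acid replicate 3 it held 0 genes lower, and 1 without undifferentiated replicate 1 or retinoic acid replicate 1. Its summed intensity was 190865 to 224326 in the undifferentiated and 177189 to 197102 in the retinoic acid samples, and its part in the repair results was not tested.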

How the data were processed

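Total RNA of 3 undifferentiated and 3 retinoic acid samples was measured on 2 one-colour Cy3 arrays each. Per the file headers, the deposited tables of the scanner hold a linear net mean intensity for each spot. R 2.15.0 and limma are named in the submitters' processing notes. A set of processed intensity that the authors deposited served as an alternative.

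Each table holds 41174 probes and 94 control rows. Probes were named by accession or symbol through the RefSeq gene table of GRCm38.p6. Intensities were quantile-normalized between arrays, 50 was added and log2 taken, so that differences of dim genes are understated. The brightest probe stood for a gene. A gene was tested when it exceeded the 95th percentile of 27 negative control spots on 4 or more of the 6 arrays in one of the groups. Technical arrays were averaged, and the groups were compared with limma 3.58.1 under R 4.3.3 (functions lmFit and eBayes, two-sided p), with Benjamini-Hochberg adjustment. The 3 samples of each group limit the precision.

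The members, the gene lists and the tests were chosen with earlier results of these data known. Values of every sample are given for each called member and for the member with the largest difference of each pathway. Of the other lists, up to 3 called genes per pathway and direction are named. Some genes of these pathways are not reported here. Between samples of the same replicate number, the correlations of the deviations from the group means were -0.06, 0.22 and 0.07. Those between different numbers ran from -0.26 to 0.26. Replicate 2 was the highest of its group in 50.0% of all genes in the undifferentiated and 51.1% in the retinoic acid group. Control spots also followed the replicate number. The main fit used no replicate block, which was run as an alternative. The header of 1 array (undifferentiated replicate 2, technical array 2) names the other technical array of its sample, and it was left out as an alternative. Other alternatives changed the scaling, the added value, the filter, the probe, the use of technical arrays, the model, the threshold and the samples. They were applied to the other lists after the data had been seen.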

Additional observations from a re-analysis of the deposited data

How the results depend on the processing

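Of the 17 called genes 5 were called under each of the 23 alternatives, 12 lost the call under 1 or more, and 0 changed sign. Among these 5, Msh6, Ung and Xrcc5 had only 1 probe, which the alternatives that changed the probe used again. Of the 33 genes not called in the main fit 11 were called lower under some alternative and 22 under none. The number called lower ranged from 9 to 19 without 1 sample, where fewer samples are fitted (9 without retinoic acid replicate 1 or 3, 11 without undifferentiated replicate 1), and was 7 at an adjusted p under 0.01. Over all genes the number lower moved too, from 1228 to 2108 without 1 sample, and it was 1115 (7.28%) at an adjusted p under 0.01. With the other alternatives it was 13 to 22, and 0 were higher under any. The median difference stayed between -0.60 and -0.45. Replicate numbers were taken to name, not to pair, the samples, and with the number as a replicate block 16 genes were lower: Blm (adjusted p = 0.051) and Fancb (0.0519) lost the call, and Msh3 (0.0424) gained it.

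The direction turned for 5 genes that were not called, and the cause was not tested. Ddb1 (0.24) gave -0.10 with the 75th percentile and -0.070 with the median scaling, and -0.069 to 0.69 without 1 sample. Xrcc1 (0.08) gave -0.22 and -0.18 with these scalings and -0.061 to 0.23 without 1 sample. Xpc (0.16) gave -0.099 to 0.36 without 1 sample. Xrcc2 (0.09) gave -0.14 with the mean of its probes, -0.36 with the second brightest probe and -0.14 to 0.27 without 1 sample. Wrn (-0.09) gave 0.017 and 0.059 with these probes and -0.22 to 0.0073 without 1 sample. With the second brightest probe Rad51d turned to -0.021 and Smug1 to -0.33. Dim signal limits Ercc2 and Mgmt.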

Other observations

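Targets of p53, the transcription factor that damage kinases stabilise, moved in both directions while the kinases fell. Of 20 such genes 8 rose and 3 fell, with a median difference of 0.31. These shares are 40.0% and 15.0%, where 18.7% of all genes rose and 13.6% fell. Phlda3, an inhibitor of Akt signalling, rose 3.85-fold (1.94 ± 0.26 SE, adjusted p = 0.00113), from 11.15, 11.09 and 10.79 to 13.36, 12.38 and 13.12 in replicates 1 to 3. Perp, a membrane protein of desmosomes, rose 3.60-fold (1.85 ± 0.17 SE, adjusted p = 0.000183), and the kinase Plk2 3.10-fold (1.63 ± 0.22 SE, adjusted p = 0.00108). In the opposite direction Tigar, a phosphatase of sugar metabolism, fell 4.20-fold (-2.07 ± 0.17 SE, adjusted p = 8.69e-05) from 9.89, 9.68 and 9.65 to 7.52, 7.89 and 7.59. Gdf15, a secreted stress factor, fell 4.20-fold (-2.07 ± 0.27 SE, adjusted p = 0.0009), and Pmaip1 (Noxa), which promotes apoptosis, 2.72-fold (-1.44 ± 0.24 SE, adjusted p = 0.00287).

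These 6 genes were called under each of the alternatives run for them. Phlda3, Perp, Plk2, Gdf15 and Pmaip1 had only 1 probe, which the alternatives that changed the probe used again. With the second brightest probe 5 of the 18 p53 targets tested rose and 3 fell, where 1967 of all 13655 genes rose and 1708 fell. The summed intensity of the 20 genes was 29874 to 36096 in the undifferentiated and 52346 to 68354 in the retinoic acid samples. With the 75th percentile scaling 6 of the 20 rose and 4 fell, where 15.9% of all genes rose and 17.2% fell. With the median scaling 6 rose and 3 fell, where 15.5% of all genes rose and 14.6% fell.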
